A study of Mus musculus with 14 samples.

Results

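Control myotubes on day 3 of differentiation were compared with control myotubes on day 2. The cells were C2C12, a myoblast line obtained from ATCC that began as mouse muscle cells and fuses into myotubes when serum is lowered. All cells compared here were transfected with control siRNA (siCtrl) and moved into differentiation medium, which holds horse serum and antibiotics. The sequence of the control siRNA was not given in the sources used here. 1 poly(A) RNA library was made for each day, so 2 of the 8 RNA samples and of the 14 samples of the series enter the comparison. The same days in cells given a pool of Klf5 siRNAs (siKlf5) form a second pair of libraries and are given beside it. Expression was measured as FPKM, which divides reads by transcript length and library size, here scaled to a matrix total of 10000000, so the values exceed ordinary FPKM. Members were the 11591 of 24016 transcripts whose FPKM value averaged at least 10 over the 8 libraries.

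Differentiating myoblasts leave the cell cycle, fuse and build sarcomeres, the repeated contractile units in which myosin thick filaments slide along actin thin filaments between Z-discs. The first myosin heavy chains made are embryonic and perinatal forms, and the adult slow and fast forms follow as fibres mature. The transcription factors MyoD, myogenin and the MEF2 family drive much of this programme.

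No condition has a replicate, so differences carry no replicate error and no test was made. A transcript is said to have risen or fallen where its value on day 3 lay more than 1.5-fold above or below that on day 2. Changes are log2 ratios after adding 0.1 to both values, which understates those of low transcripts. The 95% intervals in brackets cover counting error only and were computed on recovered reads divided by 6. Reads recovered over all listed transcripts numbered 12178833, 7850497, 20301506 and 12366627 on days 0 to 3 in siCtrl, and between 8119452 and 11808641 in siKlf5. They are counted reads and not all reads of a library. By these reads day 2 was 1.642 times as deep as day 3 in siCtrl and 1.087 times in siKlf5. Day cannot be told apart from library, and in bulk RNA fewer cells of a type cannot be told apart from less RNA per cell.

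The siCtrl library of day 2 stood apart from the other 7 before any comparison. The summed FPKM value of 75 cytosolic ribosomal protein transcripts was 128173, 139193, 82859.8 and 98778 on days 0 to 3 in siCtrl. In siKlf5 it was 134305, 129452, 109034 and 105735. The lowest of these 8 sums was therefore that of siCtrl day 2, and every siCtrl comparison of day 3 with day 2 rests on that library. Of the 8, siCtrl day 2 was also the deepest library and siCtrl day 1 the shallowest. Counting kept at most 3 reads per position, which can hold abundant transcripts down more in a deeper library. The part of this limit in the sums and in the changes below was not tested. Changes from day 1 to day 3, which leave the siCtrl day 2 library out, are given beside the myosin heavy chain, mitosis, replication, glycolysis and stress lists. This check was added after the values were seen.

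The muscle label was checked with 2 markers. Myl4 (NM_010858, chr11:104411977-104448533 on mm9), an embryonic and atrial myosin light chain, had FPKM values of 59.5, 616, 1685 and 2390.4 in siCtrl on days 0 to 3. Its log2 change from day 2 to day 3 was 0.50 (0.36 to 0.65), short of 1.5-fold. Myom2 (NM_008664, chr8:15057653-15133419 on mm9), which encodes the M-band protein myomesin 2, had values of 106, 465, 929 and 1128 and a log2 change of 0.28 (0.19 to 0.37). Both markers were higher on each day than on the day before in siCtrl, and both were also higher on day 3 than on day 2 in siKlf5, by 0.23 and 0.18. Klf5 (NM_009769, chr14:99697910-99712628 on mm9), a zinc-finger transcription factor, rose in siCtrl, where its FPKM values were 224, 381, 614 and 933 and its log2 change 0.60 (0.43 to 0.77). In the siKlf5 libraries its values were 35.1, 159.6, 192 and 211, below the siCtrl value of every day.

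From day 2 to day 3, 425 transcripts rose (3.67% of those compared) and 994 fell (8.58%). These shares are the background for the counts in each list below. The median log2 change over all 11591 was -0.08. The split depended on scaling, with 526 rising and 771 falling after upper-quartile scaling, 544 and 745 after centring on the median ratio, and 565 and 688 after centring within groups of like level. The counting interval lay wholly on 1 side of no change for 202 of the 425 and for 587 of the 994. Transcripts that rose had a median FPKM mean of 23.7 over the 8 libraries, those that fell 41.0 and all transcripts 106.7. The changes thus sat at low levels, and 89 of the 425 and 73 of the 994 came from transcripts under 300 bases long. 12 of those that rose and 59 of those that fell were listed at 0 in 1 of the 2 libraries. The log2 change nearest the cutoff was 0.59 inside and 0.58 outside for increases, and -0.59 and -0.58 for decreases.

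**Figure D1:**
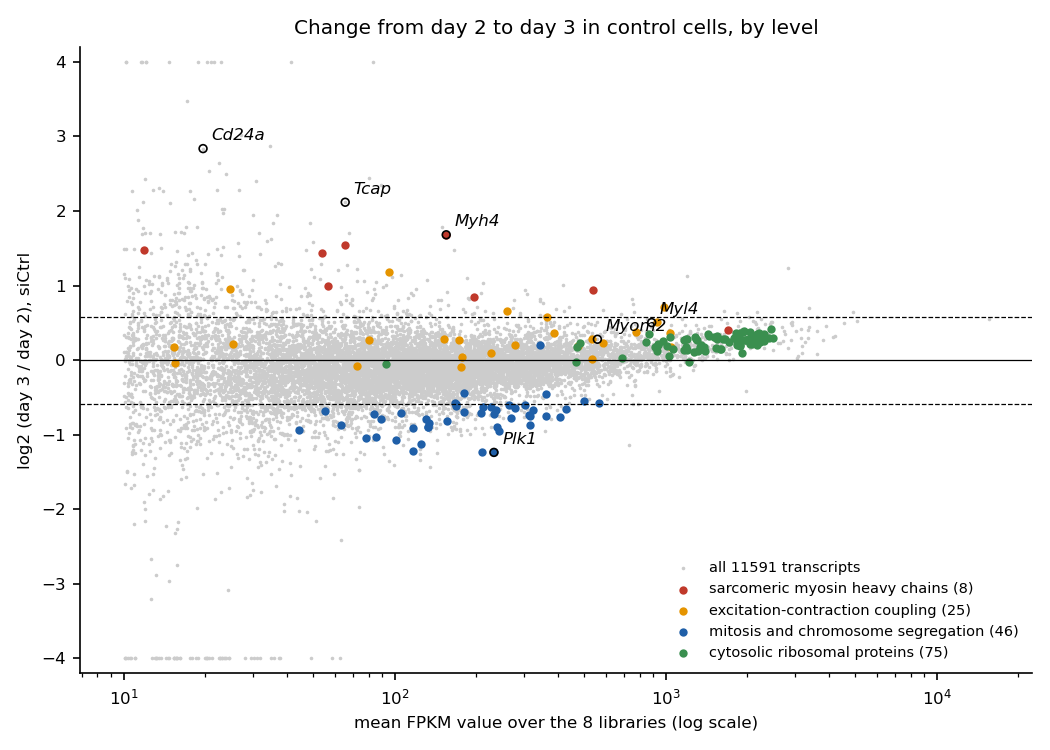
Log2 change from day 2 to day 3 in siCtrl (y axis) against the mean FPKM value over the 8 libraries (x axis, log scale) for 11591 transcripts, with 4 gene lists coloured and changes beyond ±4 drawn at the edge. Dashed lines mark 1.5-fold, above which lie 7 of the 8 myosin heavy chains and below which lie 40 of the 46 mitosis transcripts.

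Level and length moved with the change. In 10 bins of equal size by mean FPKM value the median log2 change in siCtrl was -0.05 in the lowest bin, -0.16 in the next and 0.09 in the highest, where siKlf5 had -0.06. Over the 200 transcripts with the highest means it was 0.27 in siCtrl and -0.03 in siKlf5. In 10 bins by exon length it went from 0.00 in the shortest to -0.23 in the longest in siCtrl, whereas siKlf5 went from -0.08 to 0.15. The lean by length thus pointed in opposite directions in the 2 pairs, and its part in the changes below was not tested.

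**Figure D2:**
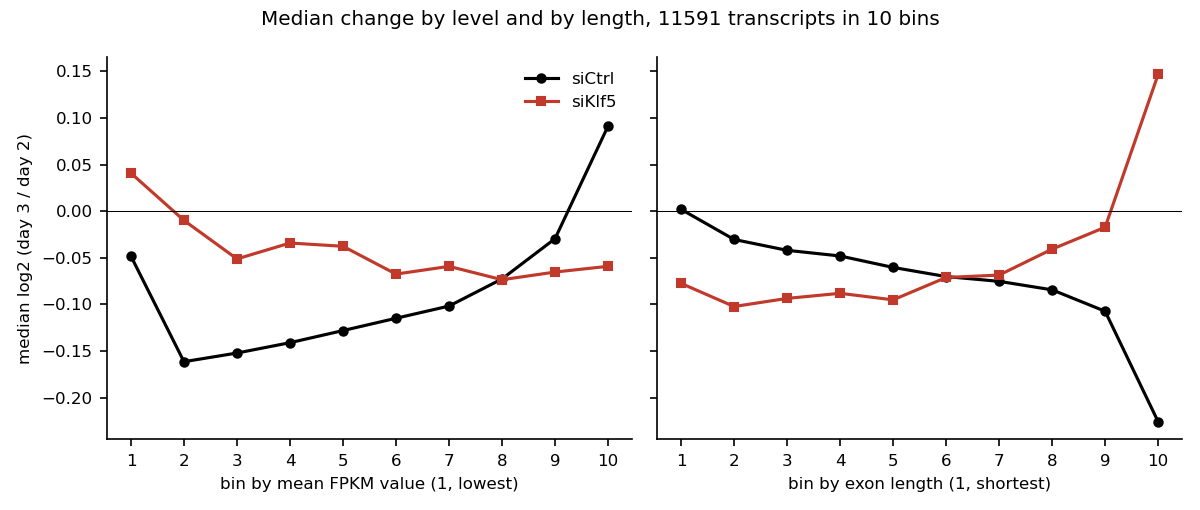
Median log2 change from day 2 to day 3 (y axis) in 10 bins of the 11591 transcripts by mean FPKM value (left) and by exon length (right), for siCtrl (black circles) and siKlf5 (red squares). The 2 pairs of libraries lean in opposite directions at the longest transcripts, with medians of -0.23 and 0.15.

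Myosin heavy chains, the motors of the thick filament, had the highest median change of the sarcomere lists. 8 of the 10 sarcomeric forms listed were compared, and 7 of them rose, 6 of which rose in siKlf5 as well. Their median log2 change was 1.22 in siCtrl and 0.92 in siKlf5, beside -0.08 and -0.05 over all transcripts. In siKlf5, 554 transcripts rose (4.78%) and 744 fell (6.42%). Myh13 and Myh15 were under the minimum mean, and Myh6 would have been too without the 2 siCtrl libraries compared, which leaves a median of 1.00 over the other 7. Reads of these near-identical genes may be split between copies, so single members are less certain than their sum.

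The adult fast form Myh4 (NM_010855, chr11:67051314-67073949 on mm9) had siCtrl FPKM values of 7.97, 22.6, 71.2 and 228 on days 0 to 3, a log2 change of 1.68 (1.46 to 1.91) from day 2. In siKlf5 it went from 231 to 598 over the same days. The slow and cardiac form Myh7 (NM_080728, chr14:55589525-55613386 on mm9) had values of 7.86, 20.6, 106 and 311 in siCtrl, 2.92 times as much on day 3 as on day 2, and its gene overlaps the antisense gene D830015G02Rik. Its siKlf5 values were lower, from 15.7 to 55.5, and its log2 change there was 1.82, beside 1.55 in siCtrl. Myh6, the alpha cardiac form, went from 18.8 to 52.4 and Myh7b from 54.2 to 147. The fast forms Myh2 and Myh1 went from 72.8 to 146 and from 772 to 1489, with log2 changes of 1.00 and 0.95. Perinatal Myh8 had values of 5.49, 70.1, 265 and 479 and a change of 0.85 (0.72 to 0.98). Embryonic Myh3, the most abundant form on every day, had values of 103, 1564, 2107 and 2790.4, and its change of 0.41 (0.35 to 0.46) did not reach 1.5-fold. In these values the adult and cardiac forms thus changed more than the embryonic form that still outweighed them on day 3. After centring within groups of like level the change of Myh3 was 0.16. As the most abundant of the 8 forms, Myh3 is the one on which the limit of 3 reads per position bears most. The size of its change beside the others is therefore uncertain, and the part of the limit was not tested. Without the day 2 library, all 8 were more than 1.5-fold higher on day 3 than on day 1, a comparison in which 18.6% of all transcripts were higher and 11.1% lower.

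The promoters of Myh1, Myh4 and Myh8, neighbours in 1 cluster on mouse chromosome 11, are shown because they share a stretch that the other myosin heavy chain promoters lack. Sequences are RefSeq's, on GRCm38.p6, from 250 bases before to 50 after the start of the gene, and differ in build from the deposited coordinates (mm9). Capitals mark matches to the MEF2 consensus and to the E-box CANNTG, which myogenic bHLH factors bind.
Myh1: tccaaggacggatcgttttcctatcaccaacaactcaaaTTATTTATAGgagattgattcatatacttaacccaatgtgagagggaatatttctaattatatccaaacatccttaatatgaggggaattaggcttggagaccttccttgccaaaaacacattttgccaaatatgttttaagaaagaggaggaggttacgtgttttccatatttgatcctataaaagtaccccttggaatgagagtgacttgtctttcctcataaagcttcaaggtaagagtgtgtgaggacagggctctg
Myh4: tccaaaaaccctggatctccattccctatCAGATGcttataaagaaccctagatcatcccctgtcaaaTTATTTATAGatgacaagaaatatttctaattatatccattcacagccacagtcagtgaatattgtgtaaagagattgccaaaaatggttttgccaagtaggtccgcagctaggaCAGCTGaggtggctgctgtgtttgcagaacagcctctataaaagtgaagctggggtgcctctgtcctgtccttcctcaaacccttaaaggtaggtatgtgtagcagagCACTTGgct
Myh8: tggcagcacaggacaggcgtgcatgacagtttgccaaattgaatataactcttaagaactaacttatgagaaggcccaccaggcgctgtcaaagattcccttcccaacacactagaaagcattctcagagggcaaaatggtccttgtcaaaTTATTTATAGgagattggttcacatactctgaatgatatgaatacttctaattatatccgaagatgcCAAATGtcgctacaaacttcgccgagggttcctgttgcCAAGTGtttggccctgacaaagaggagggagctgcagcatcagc
They lie at chr11:67199852-67200151, plus strand (Myh1), chr11:67237562-67237861, plus strand (Myh4) and chr11:67276874-67277173, plus strand (Myh8). The match to the MEF2 consensus reads TTATTTATAG in all 3 and begins at -211, -182 and -99 from the start. Counted by gene, with a match in any promoter of the gene on either strand, it was found in 3 of the 8 myosin heavy chains (37.5%). These 3 are neighbours and share letters around the match, so they may not be 3 separate occurrences. The consensus was matched in 187 of the 8560 compared genes with a promoter in the table (2.18%) and in 1001 of all 27025 genes there (3.70%). The E-box CANNTG, counted in the same way, occurred in 75.0% of the 8 and in 66.2% of the compared genes, so that it is common in windows of this length. A match describes letters and shows no binding.

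The rest of the thick and thin filament changed less. Of 8 myosin light chains and myosin-binding proteins compared, 2 rose and none fell, with a median log2 change of 0.51. In siKlf5 the median was 0.25 and 1 of the 8 rose, which was neither of these 2. Mybpc1, the slow myosin-binding protein C, had siCtrl values of 0, 9.82, 21.8 and 65.3 and a change of 1.58 (1.06 to 2.12). Myl1, the essential light chain of fast fibres, went from 1680.4 to 2662 (0.66). Of 7 troponins, which make the thin filament respond to calcium, Tnnc2 (0.64) and Tnnt2 (0.65) rose, and the median was 0.47 against 0.17 in siKlf5. After centring within groups of like level neither troponin passed 1.5-fold, nor did Myl1. None of 15 actin, tropomyosin and thin filament genes passed in either direction, and skeletal actin Acta1 went from 3163 to 4150.1 with a change of 0.39 (0.31 to 0.48). None of 13 M-band genes and titin passed. Ttn, the giant spring of the sarcomere and the longest transcript of these lists, had FPKM values of 7.47, 33.3, 77.3 and 51.9 in siCtrl and 8.37, 51, 61.8 and 98.2 in siKlf5. It was thus lower on day 3 in siCtrl by a log2 change of -0.57 and higher in siKlf5 by 0.67, the same opposed directions as the bin of longest transcripts.

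Among 18 Z-disc genes, 4 rose and 1 fell. Tcap (NM_011540, chr11:98245125-98246267 on mm9), the titin cap that anchors titin at the Z-disc, had siCtrl FPKM values of 3.77, 24, 54.6 and 237 and a log2 change of 2.12 (1.49 to 2.79). In siKlf5 it also rose, with values of 2.37, 4.77, 52.3 and 146. Actn2, the main actin crosslinker of the Z-disc, went from 385 to 681, the small heat shock protein Hspb7 from 71.4 to 144 and Myoz1 from 11.3 to 23.5. Tcap was the steepest of these and was the fifth of all increases named below. Ankrd2, a stretch-responsive titin-binding protein, fell from 372 to 198 (log2 change -0.91, -1.31 to -0.52), while its day 1 value had been 372. Of 25 genes of excitation-contraction coupling, which turns membrane depolarisation into calcium release, 4 rose in siCtrl and 8 in siKlf5, and none fell in either. The calcium-binding protein Pvalb went from 32.9 to 74.9 in siCtrl and from 134 to 447 in siKlf5. Triadin (Trdn) went from 21 to 40.9, the fast calcium pump Atp2a1 from 1327 to 2172 and calsequestrin Casq1 from 486 to 766 in siCtrl. In siCtrl 22 of the 25 were higher on day 3 than on day 2, and the list medians were 0.27 in siCtrl and 0.25 in siKlf5.

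**Figure D3:**
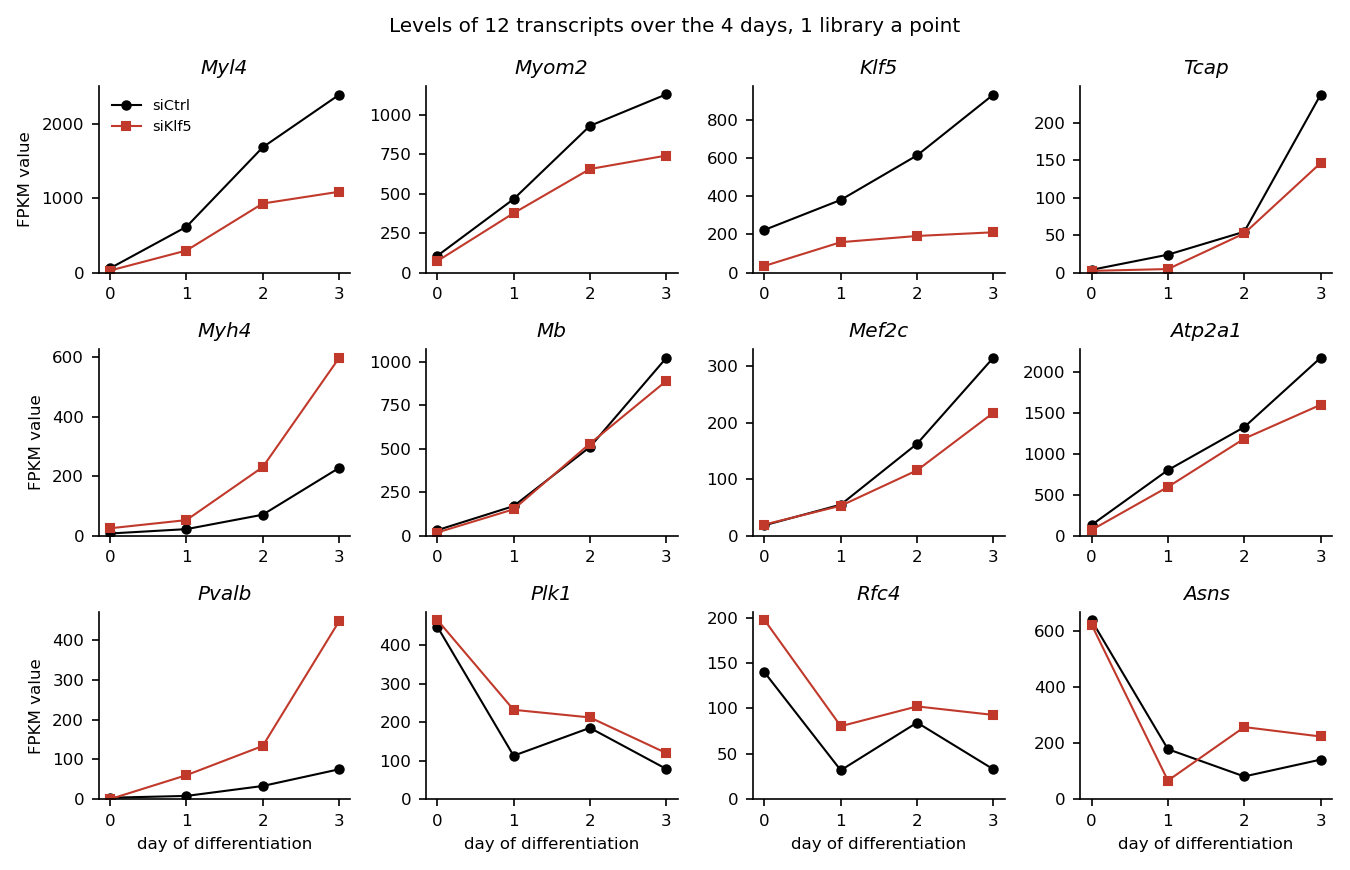
FPKM value (y axis, from 0) against day of differentiation (x axis) for 12 transcripts chosen after their values were seen, with siCtrl in black circles and siKlf5 in red squares, 1 library a point. Tcap, Myh4, Mb and Mef2c climb to day 3 in both, whereas Plk1 and Rfc4 in siCtrl drop on day 1, stand higher on day 2 and drop again.

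Mef2c, which encodes a MEF2 transcription factor, was the only one of 19 myogenic regulators to rise (5.26%, beside 3.67% of all transcripts). Its siCtrl values were 18.7, 55.2, 163 and 315, a log2 change of 0.95 (0.79 to 1.11), and its change in siKlf5 was 0.91. Msc (musculin), a bHLH repressor, fell from 54.6 to 35.1. Myog, the differentiation factor, had 2061 on day 2 and 2293 on day 3 and Myod1 479 on day 2 and 529 on day 3, both short of 1.5-fold. None of 14 genes of the acetylcholine receptor and neuromuscular synapse passed. Of 18 fusion and membrane repair genes 1 fell, the exchange factor Dock5, which did not pass under any of the 3 scalings above, where Cav3 of the list rose instead. Gm7325, which encodes the fusion peptide myomixer, had siCtrl values of 34.1, 569, 982 and 683 and a change of -0.52 (-0.78 to -0.27), whereas the fusion protein myomaker (Tmem8c) went from 1401 to 1635. The pair of fusion genes thus had changes of opposite sign, each short of 1.5-fold. Lama5, a laminin chain, was the only one of 17 dystrophin complex genes to fall (5.88%, beside 8.58% of all transcripts). It passed under none of the 3 scalings. Among 18 markers of reserve and progenitor cells, Cxcr4 rose from 90.9 to 162 and Hey1 fell from 113 to 71.9. The falls of Msc and Hey1 were likewise short of 1.5-fold under all 3 scalings.

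Cell division genes fell together. All 46 listed genes of mitosis and chromosome segregation were compared, of which 40 fell, none rose and 45 had a negative change, with a median log2 change of -0.74. In siKlf5, 9 of the 46 fell and the median was -0.41. Plk1 (NM_011121, chr7:129302951-129313389 on mm9), a kinase of mitotic entry, had siCtrl FPKM values of 449, 113, 185 and 78.6 and a change of -1.24 (-1.68 to -0.82). Its siKlf5 values were 466, 232, 212 and 119.8. Aurka, the kinase of the spindle poles, fell from 168 to 71.6 in siCtrl and went from 138 to 129 in siKlf5. The proliferation marker Mki67 fell from 89.5 to 38.5 in siCtrl, whereas in siKlf5 it went from 63.5 to 78.9. These 3 had the largest decreases of the list in siCtrl and were unequal in siKlf5. After the scalings above, 32 or 33 of the 46 still fell.

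Of 40 DNA replication genes, 20 fell and none rose, with a median of -0.59, and 13 fell in siKlf5, where the median was -0.48. Rfc4, a subunit of the clamp loader, had siCtrl values of 139.8, 31.8, 84.4 and 32.8 and a change of -1.36 (-2.34 to -0.49), and it overlaps Eif4a2. Orc1, of the origin recognition complex, fell from 22.9 to 10.4, and Mcm4, of the replicative helicase, fell from 189 to 95.6. The clamp Pcna did not pass, at 656 on day 2 and 586 on day 3. After the scalings, 12 to 15 of the 40 fell. Ccnd1, the cyclin of G1, was the only one of 17 cell cycle exit genes to fall (5.88%, beside 8.58% of all transcripts). It went from 225 to 130.3, and the inhibitor Cdkn1a went from 1944 to 2806 with a change of 0.53.

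The fall in these lists started from a day 2 library that lay above day 1. The summed FPKM value of the 46 mitosis transcripts was 17364, 6783, 8408 and 5232 on days 0 to 3 in siCtrl and 17929, 9181, 8524 and 6566 in siKlf5. The 40 replication transcripts summed to 11628, 4876, 5991 and 4298 in siCtrl and 13195, 6252, 6708 and 4895 in siKlf5. In siCtrl 38 of the 46 and 34 of the 40 were higher on day 2 than on day 1, with medians of 0.40 and 0.37 beside 0.16 over all transcripts. From day 1 to day 3, without the day 2 library, the medians were -0.34 and -0.23 beside 0.05, and 13 of the 46 and 6 of the 40 were more than 1.5-fold lower, beside 11.1% of all transcripts. Both medians were thus nearer to 0 without that library, and few replication genes passed. The part of the day 2 library in the fall from day 2 was not tested. In siKlf5 the sum of mitosis transcripts fell on every day.

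The promoter of Plk1 (chr7:122159185-122159484, plus strand, GRCm38.p6, RefSeq) is shown because it holds the letters TTTGAA of the CHR element, a known repressor site of mitotic genes, which was searched for after the values were seen. Capitals mark that match, which begins at 30 from the start.
Plk1: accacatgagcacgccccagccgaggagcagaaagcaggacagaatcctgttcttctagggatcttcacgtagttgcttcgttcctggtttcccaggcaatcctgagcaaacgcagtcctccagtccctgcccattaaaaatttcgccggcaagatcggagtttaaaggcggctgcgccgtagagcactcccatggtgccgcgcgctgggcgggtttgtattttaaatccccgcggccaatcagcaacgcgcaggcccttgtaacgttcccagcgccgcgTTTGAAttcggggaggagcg
Counted by gene as above, TTTGAA was found on either strand in 27 of the 39 mitosis genes with a promoter in the table (69.2%) and in 3 of 32 replication genes (9.38%). It was found in 13.8% of the compared genes with a promoter and 20.2% of all genes in the table.

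**Figure D4:**
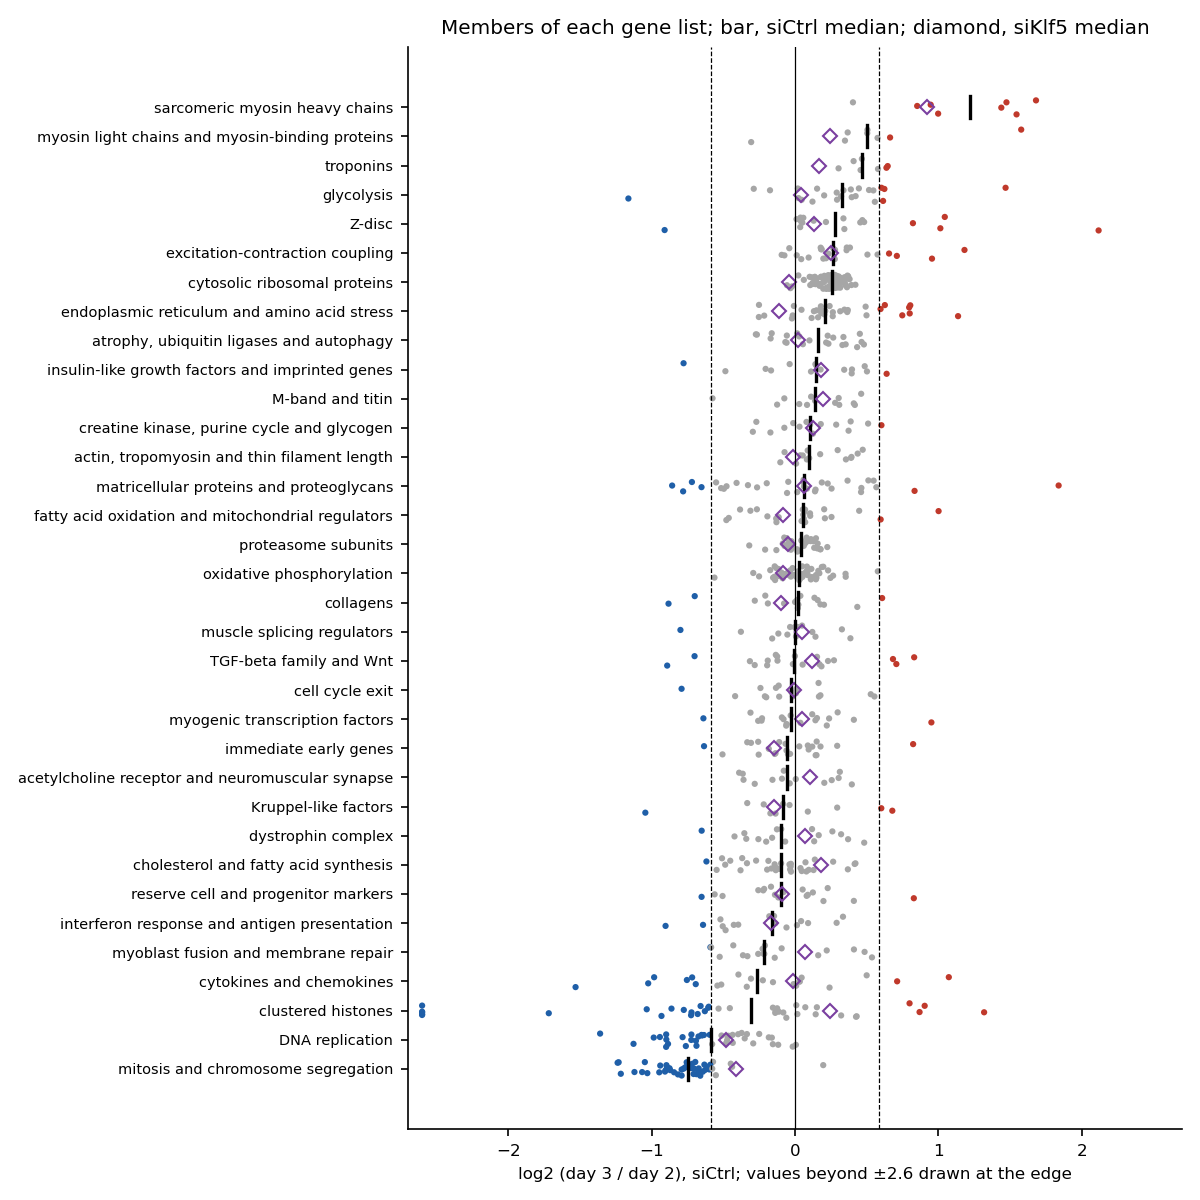
Log2 change from day 2 to day 3 in siCtrl (x axis) of every compared member of 34 gene lists (y axis, ordered by median), red above and blue below 1.5-fold, with a bar at the siCtrl median and a diamond at the siKlf5 median. Myosin heavy chains lie at the top (1.22) and mitosis at the bottom (-0.74).

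Metabolic lists moved little beside single genes. Myoglobin (Mb), the oxygen store of oxidative fibres, had siCtrl FPKM values of 32.8, 171, 511 and 1023 and a log2 change of 1.00 (0.77 to 1.24), and 0.75 in siKlf5. It and Ucp2 were the 2 of 24 genes of fatty acid oxidation and mitochondrial regulation that rose. None of 54 oxidative phosphorylation subunits and none of 31 proteasome subunits passed, with medians of 0.03 and 0.04. Of 24 glycolytic genes, 4 rose and 1 fell, and the median was 0.33 in siCtrl and 0.04 in siKlf5. After centring within groups of like level the siCtrl median was 0.17, with 6 that rose. From day 1 to day 3 the siCtrl median was -0.70, with 5 of the 24 more than 1.5-fold higher and 13 lower. Pfkfb3, which makes the activator of phosphofructokinase, went from 8.95 to 25, the muscle phosphofructokinase Pfkm from 838 to 1292 and hexokinase Hk2 from 151 to 232. Aldoc fell from 13 to 5.77, at 74 and 20 reads. The sum of the 24 was 26217, 32401, 17219 and 22144 on days 0 to 3 in siCtrl and 25754, 24394, 20640.0 and 21178 in siKlf5, so day 3 of siCtrl lay above a low day 2 and below day 1, as the ribosomal sum did. None of the 75 ribosomal transcripts passed, although 72 were higher on day 3, with a median of 0.26, which was 0.04 after centring within groups of like level.

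Stress genes moved differently in the 2 pairs. Of 33 genes of endoplasmic reticulum and amino acid stress, many of them targets of ATF4, 7 rose and none fell in siCtrl, while in siKlf5 none rose and 3 fell. Asns, asparagine synthetase, had values of 636, 178, 80.6 and 141 in siCtrl and 621, 65.8, 257 and 223 in siKlf5. The mitochondrial folate enzymes Aldh1l2 and Mthfd2 went from 23.1 to 50.9 and from 114 to 199 in siCtrl. For all 3 the siCtrl value of day 3 lay between those of day 2 and day 0. The other 4 that rose were Cebpb, Trib3, Chac1 and Atf5. The list's median log2 change was -0.49 from day 1 to day 2 and 0.21 from day 2 to day 3 in siCtrl, but 0.43 and -0.11 in siKlf5. From day 1 to day 3 in siCtrl it was -0.32, with 3 of the 33 more than 1.5-fold higher and 4 lower. The difference between the pairs was not tested.

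Secreted and matrix genes were mixed. Of 32 matricellular genes 2 rose (6.25%) and 4 fell (12.5%), beside 3.67% and 8.58% of all transcripts. Periostin (Postn), a matrix protein of developing and regenerating muscle, had siCtrl values of 24.7, 5.77, 20.5 and 73.6 and rose in both pairs, by 1.84 (1.26 to 2.46) and 1.15. Fbln5 rose as well, whereas Vcan, Ctgf, Adamts5 and Tnc fell, with changes of -0.86, -0.78, -0.72 and -0.65. Adamts5 did not pass after centring within groups of like level, and Tnc passed in 1 of the 3 scalings. Among 22 cytokines and growth factors 2 rose and 6 fell. The monocyte chemokines Ccl7 and Ccl2 fell from 96 to 33.2 and from 111 to 54.8, and the myokine Fgf21 rose from 48.7 to 103. In siKlf5 Ccl2 fell by 0.88 on the log2 scale and Ccl7 had a change of -0.01. Of 20 TGF-beta and Wnt genes 3 rose and 2 fell. Fst (follistatin), which binds activin and myostatin, had values of 2.39, 37.6, 213 and 379 in siCtrl and 1.97, 39.1, 132 and 89.4 in siKlf5, so the pairs went different ways after day 2, a difference that was not tested. Inhbb, an activin subunit, went from 218 to 349.5 and Inhba, another, from 86.7 to 46.7. Of 17 collagens 1 rose (5.88%) and 2 fell (11.8%). The imprinted noncoding RNA H19, the highest of its list, had values of 2753, 6404, 4158 and 6479 and a change of 0.64.

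Among 11 Kruppel-like factors, Klf9 (from 74.3 to 119) rose beside Klf5 and Klf7 fell (from 67.5 to 32.7). Of 38 clustered histone transcripts, 4 rose and 17 fell in siCtrl, whereas 15 rose and 7 fell in siKlf5. They are short and near-identical and mostly lack the poly(A) tail by which the RNA was selected, and most of their values rest on few reads. The remaining lists held few passing members. Interferon and antigen genes had 2 of 16 fall (Bst2 and Irf1), and splicing regulators 1 of 14 (Mbnl3). Cholesterol and fatty acid synthesis had 1 of 33 fall (Elovl6), and none of 22 atrophy and autophagy genes passed. Of 24 immediate early genes Jund rose and Nr4a2 fell. The falls of Irf1, Elovl6 and Nr4a2 did not pass 1.5-fold under any of the 3 scalings, and the rise of H19 did not after centring within groups of like level. Of 15 creatine kinase, purine cycle and glycogen genes Ampd1 rose, and of 15 insulin-like growth factor and imprinted genes H19 rose and Igfbp3 fell.

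The largest increases were ranked among the 11152 transcripts with at least 300 bases and 60 reads in the higher library. Cd24a (NM_009846, chr10:43298975-43304071 on mm9), a surface glycoprotein, had siCtrl values of 23.8, 28, 8.05 and 58.2, a log2 change of 2.84 (1.73 to 4.16) on 49 and 216 reads. In siKlf5 its values were 23.8, 2.48, 6.81 and 5.85. Pacsin1, an adaptor of endocytosis, had values of 1.46, 1.12, 12.7 and 63.4 and a change of 2.32 (1.71 to 2.97). Its change in siKlf5 was 1.56. Hopx, an atypical homeodomain protein, went from 15.2 to 67.9 in siCtrl and from 20.1 to 20.3 in siKlf5. The BMP-family ligand Gdf5 had values of 0, 7.09, 36.7 and 142, and the matrix protein Cilp 0, 0, 9.27 and 40.4, so both were lowest before day 2. Synaptogyrin Syngr1, the kinesin adaptor Fez1, the ciliary protein Cys1, lysozyme Lyz2, 2900076A07Rik, Postn and Tcap made up the other increases. Of the 12, 8 had the same direction in siKlf5 and 7 rose there (2900076A07Rik, Pacsin1, Tcap, Cilp, Gdf5, Fez1 and Postn). Without the 2 siCtrl libraries compared, Pacsin1 and Fez1 would have been under the minimum mean of 10, at 5.29 and 7.12.

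Of the 12 largest decreases, 9 had the same direction in siKlf5 and 5 fell there (Efna5, Poc1a, Gzme, Map2k6 and Tmem176b). Gzme, a granzyme with near-identical copies, had siCtrl values of 52.7, 180.5, 60.1 and 11.2 and siKlf5 values of 45.2, 103, 44.4 and 11. The log2 change was -2.42 (-4.56 to -0.84) in siCtrl and -2.01 in siKlf5. Map2k6, a kinase that activates p38, fell from 9.87 to 1.9 in siCtrl and from 9.28 to 2.18 in siKlf5, on 68 and 8 siCtrl reads. Efna5, an ephrin ligand, fell from 9.41 to 0.929, and Poc1a, a centriole protein, from 17.7 to 2.02. 1110034G24Rik went from 17.1 to a listed 0, at least 17.1-fold lower against a floor of 3 reads. Cd40, Csn3, Echdc3, Lyrm1, Spsb4 and Htr1b had log2 changes between -2.96 and -2.04, and Lyrm1 would have been under the minimum mean without the 2 libraries compared. Each of the 12 had at most 33 reads on day 3, so counting error is wide.

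**Figure D5:**
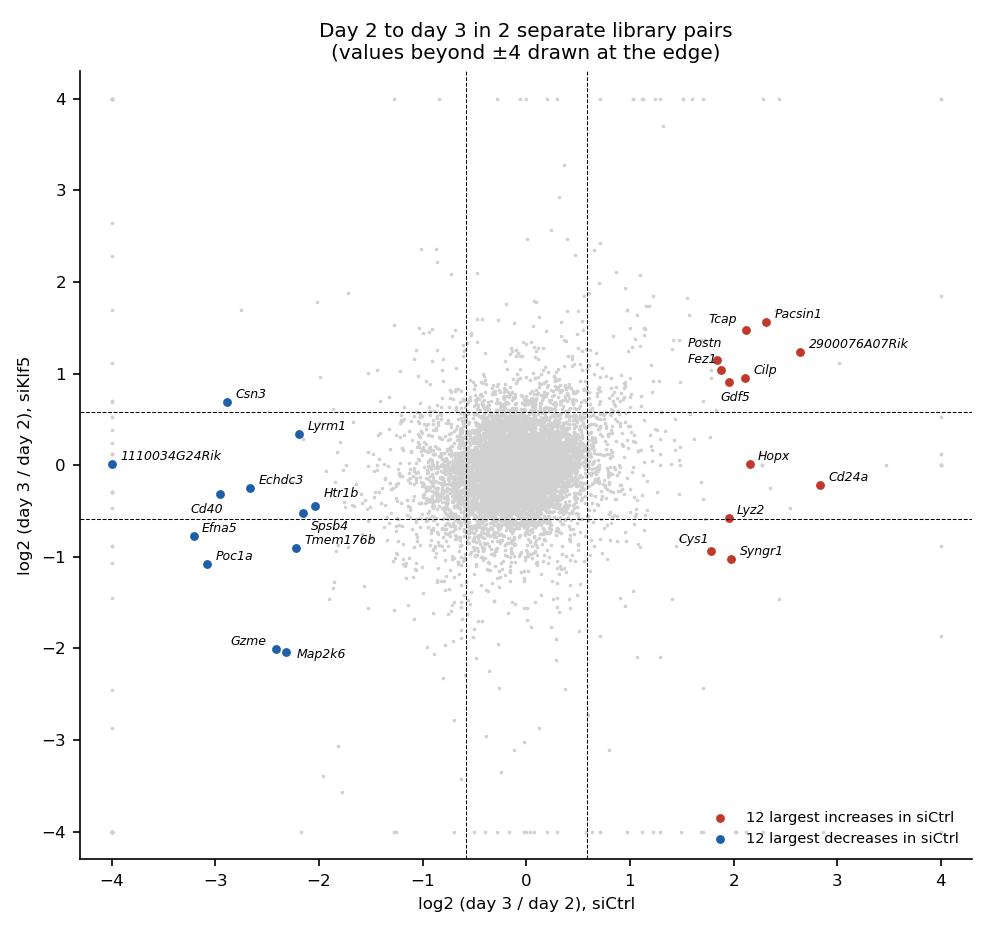
Log2 change from day 2 to day 3 in siKlf5 (y axis) against that in siCtrl (x axis) for 11591 transcripts, with the 12 largest increases (red) and decreases (blue) of siCtrl named and 1.5-fold dashed. 7 of the 12 increases and 5 of the 12 decreases pass 1.5-fold in the same direction in siKlf5.

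The 2 pairs share no library. Of the 425 transcripts that rose in siCtrl, 116 rose in siKlf5 (27.3% of the siCtrl and 20.9% of the siKlf5 increases) and 56 fell there (13.2%). Of the 994 that fell, 202 fell in siKlf5 (20.3% of the siCtrl and 27.2% of the siKlf5 decreases) and 80 rose (8.05%). Over all transcripts compared, 4.78% rose and 6.42% fell in siKlf5. Across the 11591 transcripts Pearson's r between the changes was 0.09 and Spearman's rho 0.18. Both are descriptions only, as the leanings by level and length differed between the 2 pairs. The first day of differentiation shares no library with this step either. From day 0 to day 1, 1344 transcripts rose (11.6%) and 2338 fell (20.2%) in siCtrl. Of the 425, 140 had risen then (32.9%) and 114 had fallen (26.8%). Of the 994, 442 had fallen (44.5%) and 140 had risen (14.1%).

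Markers of other cell types were mostly low. Of the 8 markers each of osteoblasts, adipocytes, endothelium, macrophages and neurons or glia, at most 2 of a list were compared. From day 2 to day 3 in siCtrl their summed FPKM values went from 112.3 to 97.8 (osteoblast), 70.7 to 77.0 (adipocyte), 13.0 to 10.6 (endothelial), 27.6 to 87.7 (macrophage) and 102.6 to 85.0 (neuron and glia). Adipoq, Fabp4 and Plin1 of fat were listed at 0 on both days. Most of the macrophage sum was Lyz2, which rose from 16.7 to 65. Each of the other 7 macrophage markers was also higher on day 3, but all of these except Cd68 were under the minimum mean and rest on low values. Among them were Itgam (from 2.11 to 5.25), Csf1r (from 0.618 to 1.39) and Ptprc (from 0 to 0.529). The part of the macrophage markers in other changes was not tested. In siKlf5 Lyz2 went from 39.6 to 26.6, whereas Cd68, the other compared marker, was higher on day 3. The sum of the 8 macrophage markers there went from 49.8 to 49.2. Of 8 smooth muscle markers 6 were compared, none passed, and their sum went from 3476 to 4099. Acta2 among them is also made by differentiating C2C12 cells.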

How the data were processed

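Poly(A) RNA from C2C12 cells was sequenced from both ends. Per the labels and the study's methods, the authors aligned reads to mm9 with STAR and counted them with HOMER on exons of RefSeq transcripts, over both strands, keeping at most 3 reads per position and 1 transcript per gene. The authors deposited FPKM values with the matrix total set to 10000000. Antisense and near-identical genes can therefore share reads. 8 further value columns of log2 values, 1 of which carries no day, were not used, and the ChIP-seq samples were not analysed here.

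Reads were recovered from the value step of each library, and all values checked lay within 0.1 of whole reads. In siCtrl day 3, 471 transcripts had 6 reads and 64 had 5, so reads were divided by 6 for 95% exact binomial intervals. Changes used a pseudocount of 0.1, a mean of at least 10 over 8 libraries and a cutoff of 1.5-fold. Named transcripts were the 12 largest increases and decreases with at least 300 bases and 60 reads, Myl4, Myom2 and Klf5, and in each list the 3 largest changes each way and the 3 highest means. Other list members were named where a sentence on their list needed one. The members and the 40 gene lists were chosen with earlier results of these data known. Other pseudocounts, filters, cutoffs and scalings were tried. Steps were tested on simulated data. Tools were scipy 1.17.1, pandas 2.3.3 and numpy 2.4.6 under Python 3.11.15, with plots by matplotlib 3.10.9.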

Additional observations from a re-analysis of the deposited data

Results flagged for a closer look

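A few named transcripts rose past 1.5-fold from day 2 to day 3 in one pair of libraries and fell past it in the other. With 1 library a day this difference was not tested. Syngr1 had a log2 change of 1.98 in siCtrl and -1.02 in siKlf5, and Cys1 had 1.79 and -0.94. Csn3 had -2.88 in siCtrl and 0.69 in siKlf5. The activin subunit Inhba had -0.89 and 0.59, with more reads than the others. Among short histone transcripts with few reads, Hist1h1b had 0.91 in siCtrl and -1.46 in siKlf5. Hist1h3e had a change of 2.65 and Hist1h2bm of 0.69 in siKlf5, and both were listed at 0 on day 3 in siCtrl.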

How the results depend on the processing

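The counts of 425 increases and 994 decreases became 1247 and 1827 with a mean of at least 1, 127 and 430 with a mean of at least 50, 2355 and 2944 with no filter on low values, and 155 and 271 with a 2-fold cutoff. They were 294 and 878 among transcripts of at least 300 bases and 60 reads. The other settings gave 389 to 565 and 688 to 1008. Scaling moved the share of increases among calls from 30.0% to between 40.6% and 45.1%. The myosin heavy chain median of 1.22 became 1.00 with means of at least 1, of at least 50, or of at least 10 over the other 6 libraries, and 0.97 with no filter. The median for markers of neurons and glia became -1.96 with a mean of at least 1 and -0.53 with no filter, as more members entered. The ribosomal median of 0.26 became 0.037 with level centring. Of 438 values for medians of 40 lists, 431 moved by no more than the typical counting error of a single member. Of 1928 values for 198 named transcripts, 1860 stayed within their counting interval or hardly moved. A reversal was scored only where the main change passed 1.5-fold, and none was seen. Smaller changes did switch sign. With level centring the oxidative phosphorylation median went from 0.03 to -0.03 and the proteasome median from 0.04 to -0.01. With day 1 in place of day 2, chosen after seeing the data, 2151 transcripts rose and 1284 fell. No paired analysis was possible because the comparison has 1 library a side and comes from no test, and neither of its 2 libraries could be left out of it. Low read counts limit the transcripts near a mean of 10.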
